A study of Caenorhabditis elegans with 2 samples.

Results

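Distal intergenic summits on the autosomes are the points of highest ChIP-seq signal that lay away from protein-coding genes. They were chosen from the list of reproducible peaks on genome build ce11 (WBcel235) by position alone. A summit was kept when it was not on X, lay in no protein-coding gene body and fell outside every promoter window, spanning the 1000 bp before and the 500 bp after a protein-coding gene start. This left 195 summits in 193 regions, of 1739 reproducible summits in the whole series and 1544 on the autosomes.

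The series measured, by chromatin immunoprecipitation and sequencing (ChIP-seq), where eGFP-tagged CEH-28 was found on the genome of whole Caenorhabditis elegans. The worms were L4 larvae, with the sexes pooled, of strain OP241, whose genotype is given as unc-119(ed3) III with the integrated transgene wgIs241 carrying tagged ceh-28. There was 1 group with 2 biological replicates, both set against the same control, and no treatment or second genotype. The tagged protein came from a transgene beside the worm's own ceh-28, all cells of the animal were sampled together, and the labels state neither the age nor an extraction protocol.

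CEH-28 is a homeodomain transcription factor of the NK-2 class, and in worms it is known from a single pharyngeal neuron, M4, where it acts in synapse assembly and in the expression of the BMP ligand gene dbl-1. Regulatory DNA away from gene starts can act as an enhancer, and in the compact worm genome most intergenic gaps are short. The gaps between genes that point towards each other hold gene ends rather than gene starts. Repeats of the worm genome lie mostly on the chromosome arms.

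The members fell into kinds that can be read in the sequence around the summit. The 6 sequences here, from RefSeq's WBcel235 genome on the + strand, run from 100 bp left to 100 bp right of a summit and are shown because they carry these kinds. Capitals mark the palindrome ATCGAT and the word AGAGAC, the latter also as GTCTCT where it lies on the other strand. The first 3 are an array of regularly spaced ATCGAT sites in the member with the highest signal, a repeat with fewer copies, and the member with 9 sites.
clp-4 member, chrIII:1807404-1807604: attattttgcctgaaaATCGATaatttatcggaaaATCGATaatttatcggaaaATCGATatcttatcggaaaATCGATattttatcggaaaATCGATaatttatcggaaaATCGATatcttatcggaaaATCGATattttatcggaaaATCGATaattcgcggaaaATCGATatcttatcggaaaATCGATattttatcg
lgc-33 member, chrIV:849063-849263: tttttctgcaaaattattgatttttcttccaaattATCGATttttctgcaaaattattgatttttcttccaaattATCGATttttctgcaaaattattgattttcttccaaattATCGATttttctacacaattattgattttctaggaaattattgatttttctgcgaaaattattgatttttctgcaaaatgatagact
rpc-11 member, chrIV:1408212-1408412: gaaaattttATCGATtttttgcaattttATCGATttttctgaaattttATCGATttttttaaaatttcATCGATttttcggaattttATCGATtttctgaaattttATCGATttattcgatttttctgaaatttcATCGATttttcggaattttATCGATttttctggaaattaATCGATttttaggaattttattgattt
The next sequence is a member without ATCGAT and with 3 copies of AGAGAC. The last 2 hold neither word.
mtm-3 member, chrIII:3801395-3801595: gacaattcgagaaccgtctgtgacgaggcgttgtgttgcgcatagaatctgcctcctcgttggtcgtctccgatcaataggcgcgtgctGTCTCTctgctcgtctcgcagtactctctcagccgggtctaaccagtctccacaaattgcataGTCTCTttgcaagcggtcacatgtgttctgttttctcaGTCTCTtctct
ZC416.2 member, chrIV:3629339-3629539: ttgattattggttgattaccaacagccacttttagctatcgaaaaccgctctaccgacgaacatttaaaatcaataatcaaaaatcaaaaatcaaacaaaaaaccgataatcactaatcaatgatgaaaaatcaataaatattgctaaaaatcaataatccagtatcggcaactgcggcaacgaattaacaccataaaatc
srbc-6 member, chrV:3171713-3171913: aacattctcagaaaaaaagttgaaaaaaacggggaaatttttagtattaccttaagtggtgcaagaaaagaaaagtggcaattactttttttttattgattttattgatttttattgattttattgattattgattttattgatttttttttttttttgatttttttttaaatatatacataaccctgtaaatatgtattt

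Within 100 bp of the summit, 102 members held ATCGAT alone, 34 held both words, 37 held AGAGAC alone and 22 held neither. At least 1 of the words was thus present at 173 of 195 members (88.7%, 95% Wilson interval 83.5 to 92.4). The same share was 92.6% at intronic, 89.0% at exon and UTR and 79.8% at promoter summits, and 31.9% at weaker distal intergenic summits, so it is not particular to members. Intervals on shares cover counting error only and take summits as independent of each other. ATCGAT is its own reverse complement, so both strands were covered by 1 search, while AGAGAC was sought on both strands. In windows of the same length laid over the whole autosomal distal intergenic space, ATCGAT was present in 4.68% and AGAGAC in 6.88% of 96105 windows. AGAGAC was picked out after the 6-mer tests described further on had been seen.

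The members' signal is the authors' own peak height for both replicates pooled, on a scale that is not stated, and it served only to describe and rank peaks. It ran from 56.5 to 668 with a median of 90.6 (quartiles 68.1 and 142). The other 1349 autosomal reproducible summits had a median of 91.3 and a maximum of 2314. Of the members, 50.3% stood above the median of the whole list against 51.4% of the others, a difference that did not pass (Fisher's exact test, two-sided, adjusted p = 0.76). With promoter windows of 2000 bp upstream the direction turned (54.7% and 51.0%). Above a signal of 200 stood 26 members, and above 300 stood 9. All p-values of shares were adjusted together over 15 tests by the Benjamini-Hochberg method.

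**Figure D1:**
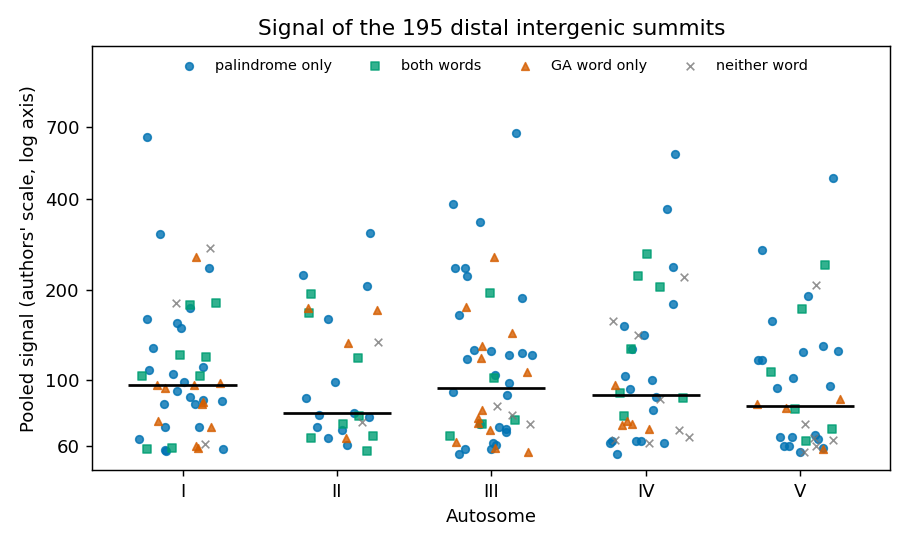
Pooled signal (vertical log axis, authors' scale) of each of the 195 members by autosome, with bars at the medians and symbols for the words found within 100 bp (palindrome, ATCGAT; GA word, AGAGAC). The medians lie between 77.7 and 96.2, and the members above 300 hold the palindrome alone.

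The list of reproducible peaks was cut by signal, so the lowest members lie at that limit. The lowest were nearest to the starts of miz-1 (56.5, with 45.5 in replicate 1 and 14.2 in replicate 2) and Y48A6C.8 (56.7, with 30.2 and 22). Just outside stood distal intergenic summits nearest to vab-19 (56.4, with 38.1 and 17.3) and C33D9.13 (56.3, with 36.9 and 17.2). The values on both sides of the limit were nearly equal in the pooled list and overlapped in each replicate. On the positional limit, the members nearest to cri-3 (signal 71.4) and to egl-3 (158), the latter the gene of a proprotein convertase that processes neuropeptides, lay 19 bp outside a promoter window. In all, 14 members were within 100 bp of one.

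Both replicates had a region at nearly every member. A threshold on agreement between these same replicates set the reproducible list, which was cut by their pooled signal. The presence in both replicates and the correlations between them thus follow in part from the choice and are descriptions. A replicate's value is the highest signal among its regions that hold the summit, so members in 1 region can share it. A region was present in both replicates for 191 members, in replicate 2 alone for 1 and in replicate 1 alone for 3. Signals ran from 13.4 to 504 (median 65.0) in replicate 1 and from 5.76 to 220 (median 25.4) in replicate 2. The 2 deposited replicate lists need not share a scale. Replicate 1 was higher at 188 of the 191 members, with a median ratio of 2.53 (range 0.569 to 9.87), and the median ratio at the other autosomal summits was 2.82. Across the 191 members, which come from the same 2 libraries and the same control, the Spearman correlation of the signals was 0.677 and the Pearson correlation of their log10 values 0.743. The Spearman correlation over 1313 other autosomal summits was 0.692. Among the 1739 highest summits of each replicate list, replicate 1 held 175 members (89.7%; other autosomal summits, 92.0%) and replicate 2 held 150 (76.9%; others, 76.6%).

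**Figure D2:**
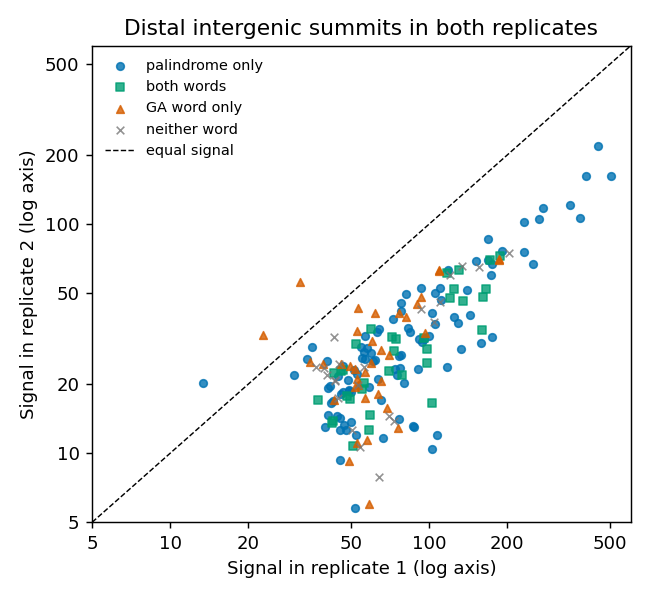
Signal of the 191 members with a region in both replicates, replicate 1 on the horizontal and replicate 2 on the vertical log axis, with a dashed line at equal signal. All but 3 points lie below the line.

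The exceptions among the replicates were named after their values were seen. The member nearest to F54F12.1 had 31.8 in replicate 1 and 55.8 in replicate 2, that nearest to hif-1, the gene of a hypoxia response factor, had 22.9 and 33.0, and the weaker of a pair near grif-1 had 13.4 and 20.3. These were the only 3 that stood lower in replicate 1. The 3 members without a region in replicate 2 were nearest to Y53G8B.2 (pooled signal 236, replicate 1 168), nduf-9 (71.2 and 51.7) and Y54G2A.26 (62.5 and 60.9). The member near F56G4.7 (69.4) had no region in replicate 1 and 18.1 in replicate 2. Of these 7, the one near Y53G8B.2 was the only one with a pooled signal above 200. Its pooled region held a second member (121), and replicate 2 had a region there (86.0) that did not reach the first summit.

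The 3 highest members lay between genes that point towards each other. The highest, on chromosome III at 1807312 to 1807695, had a pooled signal of 668, with 504 in replicate 1 and 163 in replicate 2. It lay in the 592 bp between the ends of rimb-1, which encodes a RIM-binding protein of the presynaptic active zone, and clp-4, which encodes a calpain protease, and it held 10 ATCGAT sites. The second, on chromosome I at 219284 to 219969, had 647 (448 and 220), 2 sites, and a gap of 12440 bp between Y48G1BL.8 and Y48G1BM.10. The third, on chromosome IV at 848260 to 849380, had 568 (402 and 162) and 3 sites in the 396 bp between lgc-33, a ligand-gated ion channel gene, and lem-4.

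Other high members followed the same layout. The member nearest to M70.3 (signal 371; 265 in replicate 1 and 105 in replicate 2) lay in a gap of 684 bp between the ends of fnip-2 and M70.3 and held 4 sites. The member nearest to Y41C4A.21 (337; 232 and 102) lay in the 472 bp between the ends of Y41C4A.21 and sup-1, 197 bp from the nearer. The highest member of chromosome II, nearest to rol-1 (310; 253 and 67.2), lay in a gap of 810 bp. Those near grif-1 (307; 232 and 75.3) and Y43F8C.5 (271; 192 and 76.1) were also between convergent genes, in gaps of 4833 and 609 bp. A pair of members had another layout. The highest member of chromosome V (19010426 to 19010738; 471, with 349 and 122) lay within the pseudogene WBGene00012690, nearest to Y39B6A.30. The member nearest to Y55D5A.4 (386; 275 and 117), with 6 sites, lay in the 4456 bp between that gene and daf-2, the gene of the worm insulin receptor, which run in the same direction.

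The remaining members among the 15 highest brought in AGAGAC. The member 2788 bp upstream of unc-13, which encodes a protein that primes synaptic vesicles, had a signal of 275 (203 and 75.1) and neither word. That nearest to T23E1.1 (263; 189 and 72.4) held 1 ATCGAT and 2 AGAGAC. The members nearest to F58D5.5 (257; 187 and 70.8) and to mtm-3 (256; 187 and 70.1), the gene of a myotubularin lipid phosphatase, had 2 and 3 copies of AGAGAC and no ATCGAT. Last came the member upstream of cmd-1, the calmodulin gene (242; 172 and 69.4), which held each word once and lay within linc-128, a long non-coding RNA gene.

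Gaps between convergent genes held most of the highest members, which is given as a description because signal ranked them. Of the 10 highest members 7 lay between convergent genes, of the 20 highest 11, of the 50 highest 17, and of all 195 members 38 (19.5%). The space itself held 17.5% of its windows between convergent genes, and the weaker distal intergenic summits, which are those of the pooled list below the reproducibility limit, 12.6% of 2929. Members between convergent genes had a median signal of 123 (replicate medians 101 and 35.1), against 84.7 between tandem genes (63.3 and 24.6) and 85.4 between divergent genes (59.7 and 25.1). Their gaps were short, with a median of 1273 bp, where the gaps around weaker convergent summits had a median of 2573 bp. Of the 38, 33 (86.8%) held ATCGAT, 5 (13.2%) held AGAGAC, and 30 lay within 1000 bp of a gene end. The rule removes the first 1000 bp upstream of starts, so a short gap can pass it only where at least 1 gene end faces the gap, and the smallest divergent gap among members was 2318 bp.

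The other members lay between tandem or divergent genes. Between tandem genes lay 102 (52.3%; weaker, 57.2%, not tested) and between divergent genes 55 (28.2%), the latter against 30.1% of weaker distal intergenic summits, which did not pass (Fisher's exact test, adjusted p = 0.673). The direction turned against the weaker summits next in signal (28.2% and 27.1%) and with promoter windows of 500 bp upstream (32.8% and 32.5%). The nearest start was at a median of 2306 bp (quartiles 1428 and 4039, range 792 to 12000), and at 2452 bp for weaker summits. Members lay upstream of that start in 143 cases (73.3%; weaker, 71.6%). Of the members 35.9% lay within 1000 bp of a gene end, against 26.4% of weaker summits, which was not tested. Farthest from any start were a pair of members in 1 region near sprr-3 (signals 152 and 100, at 12000 and 11795 bp) and the clp-4 member at 10819 bp. Within a non-coding gene or pseudogene lay 26 (13.3%; weaker, 11.8%; exact test, adjusted p = 0.62), of which 14 were in pseudogenes, 10 in ncRNA genes and 2 in lincRNA genes. With promoter windows of 500 bp upstream the difference passed (15.4% and 10.6%, exact test, adjusted p = 0.0382), and against the weaker summits next in signal the direction turned (13.3% and 17.6%).

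Members were more often on the chromosome arms than weaker summits. In the outer 2 of 3 equal parts of a chromosome lay 144 members (73.8%, interval 67.3 to 79.5) against 64.6% of weaker distal intergenic summits (Fisher's exact test, adjusted p = 0.0156), and 69.6% of the space lay there. The call was lost against the weaker summits next in signal alone (67.4%, exact test, adjusted p = 0.305) and with promoter windows of 500 bp upstream (69.5% of members, adjusted p = 0.0525). Per megabase of distal intergenic space there were 16.4 members on chromosome I and 17.2 on III, and 7.56 on II, 7.60 on IV and 6.99 on V. Chromosomes I and III had 14.6% and 14.4% of the space, 23.6% and 24.6% of the members, and 18.5% and 19.7% of the weaker summits. Weaker summits were thus also above the share of space there, and the difference was not tested. The share of members with ATCGAT ran from 65.8% on IV to 77.8% on II, with 66.7% on III, 69.6% on I and 72.2% on V. Of the members 45 had another within 10 kb. Picked out after their values were seen, 4 members lay in the 9569 bp between the convergent genes twk-46, a potassium channel gene, and nhr-95, with signals from 94.3 to 117, and 3 lay in the 1499 bp between cisd-3.2 and ddx-35, with signals of 236, 104 and 89.2.

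Of the pooled autosomal summits of every kind, 8.90% were in the reproducible list. Of pooled distal intergenic summits it was 6.24% (195 of 3124, interval 5.45 to 7.15), of promoter summits 9.07%, of intronic summits 12.4% and of exon and UTR summits 5.91%. The limit on signal fixed these shares, and they are given as a description. Distal intergenic space made up 23.4% of the autosomes, and the members made up 12.6% of the reproducible autosomal summits.

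ATCGAT was common at members but less common than in genes, as a share of summits that takes no account of the local background. It was present at 136 members (69.7%, interval 63.0 to 75.8), at 88.1% of 598 intronic summits (Fisher's exact test, adjusted p = 6.22e-08) and at 86.9% of 191 exon and UTR summits (adjusted p = 0.000108). The last difference did not pass among summits at or above the list's median signal (77.6% and 88.5%, exact test, adjusted p = 0.104). Against the 560 promoter summits, of which 71.8% held it, the difference did not pass (exact test, adjusted p = 0.673). With promoter windows of 2000 bp upstream the direction turned (73.4% of members and 72.1%). The distal intergenic summits of X held it less often, 22 of 59 (37.3%, interval 26.1 to 50.05; exact test, adjusted p = 4.78e-05), as did the weaker distal intergenic summits with 19.2% (adjusted p = 1.88e-47). The windows 1000 bp to their right also held ATCGAT less often, at 3.39% for X and 5.53% for weaker summits against 13.3% for members. Whether the excess over these windows differed was not tested for X or weaker summits. Of the weaker summits next in signal alone, 42.99% held it (exact test, adjusted p = 2.32e-07). Summits are not replicates of the experiment, so these p-values speak of these lists and not of the spread between worms.

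The windows 1000 bp to the right of the members gave a local background. There 13.3% held ATCGAT, and 116 members held it at the summit alone against 6 in the right window alone (exact McNemar test, adjusted p = 1.2e-26). The ratio of these counts was 19.3 at members and 27.5 at other autosomal summits, a difference that did not pass (Fisher's exact test, adjusted p = 0.599). Its direction turned under 3 alternatives, with 118 against 27.6 for the left window, 80.0 against 24.6 for promoter windows of 2000 bp upstream and 36.3 against 30.5 for a side window at 500 bp. The right windows held ATCGAT at 26.4% for intronic, 19.9% for exon and UTR and 14.1% for promoter summits, so the local background differed between classes too. The excess over it was not tested for each of these classes. The site nearest to the summit was at a median distance of 15 bp, and at 86 of 136 members it was within 20 bp. ATCGAT occurred 24.1 times per 100 members in the 20 bp around the summit, against 32.2 at other autosomal summits.

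**Figure D3:**
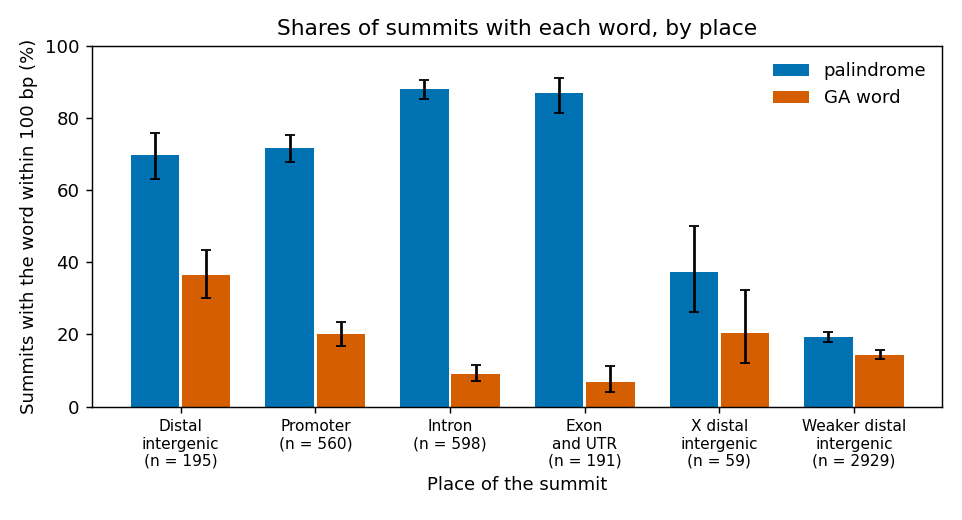
Share of summits with each word within 100 bp (vertical axis, percent; bars with 95% Wilson intervals) for reproducible summits by place and for the weaker distal intergenic summits. The GA word AGAGAC is at 36.4% of members and at 20% of promoter summits, and the palindrome ATCGAT at 69.7% and 71.8%.

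Arrays of ATCGAT were rarer at members than at the other autosomal reproducible summits as 1 class. The 195 windows held 248 sites, 1 site at 80 members, 2 at 25 and 3 or more at 31, with a maximum of 10. At least 4 sites were present at 11 members (5.64%) against 13.9% of other autosomal summits (Fisher's exact test, adjusted p = 0.00174). The call was lost with windows of 50 bp (1.54% and 4.23%, exact test, adjusted p = 0.139) and with promoter windows of 2000 bp upstream (8.59% and 13.3%, adjusted p = 0.358). Beside the clp-4, Y55D5A.4 and rpc-11 members, the last near a gene of an RNA polymerase III subunit (signal 179; 144 and 40.03), most sites were found near dmsr-2, with 5 (160; 132 and 28.6), and near smi-1, with 4 (188; 158 and 30.2), the last tied with other members. Of 112 distances between neighbouring sites, in 56 members, 29 (25.9%) were 18 to 20 bp, and 25.2% of 1399 distances at other autosomal summits. The clp-4 member alone gave 9 of the 29, as its printed sequence shows, and without it the share was 19.4%.

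Signal was higher at members with 3 or more sites, a difference that was not tested. The median was 79.3 with no site (59 members), 87.2 with 1, 91.9 with 2 and 149 with 3 or more (31 members). The quartiles overlapped widely with 0, 1 and 2 sites (66.4 to 124, 64.6 to 122 and 63.5 to 158) and were 101 and 253 with 3 or more. The order of the medians was the same in replicate 1, with 57.4, 62.0, 68.7 and 107, while replicate 2 had 24.5, 23.9, 26.8 and 38.4. Repeat content moved with it, because the median share of bases soft-masked as repeats in the reference was 18.4%, 22.6%, 59.7% and 92.0% in that order, and its part in the result was not tested. The bases next to the sites also differed from sites elsewhere. Counting outwards from both ends of each site, the next 3 bases were TTT at 33.1% of the members' site ends, 41.5% of those at other autosomal summits and 12.7% of those at 3890 sites of the distal intergenic space outside all pooled regions. AAT followed at 14.4%, 18.8% and 2.85%. Each site of an array was counted, so copies of 1 repeat unit entered several times, and the part of repeats was not tested.

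Members lay in repeats less often than the other autosomal summits. The base at the summit was soft-masked at 88 members (45.1%) and at 61.5% of the others (Fisher's exact test, adjusted p = 6.79e-05), and in 41.1% of windows of the space. The others are mostly intronic and promoter summits. The median soft-masked share of the window was 27.9% at members, 34.3% at promoter summits, 44.8% at exon and UTR summits and 71.4% at intronic summits. With promoter windows of 2000 bp upstream, which left 128 members, the shares were 54.7% and 59.8% and the call was lost (exact test, adjusted p = 0.435). The windows of 10 members were masked throughout, and those of 21 had no masked base. A read of 31 bases from a stretch that occurs more than once in the genome has no unique place. At least 50% of the 31-base stretches of the window were of this kind at 2 members, or 1.03% against 2.45% of other autosomal summits (exact test, adjusted p = 0.455). These were the members with the highest signal near clp-4 (93.6%) and near grif-1 (51.5%). The lgc-33 member stood at 43.3%.

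AGAGAC was more common at members than in each class it was tested against. A test of all 6-mers, with both strands merged, set the members against other summits or windows, with p-values adjusted over all 6-mers (Fisher's exact test, Benjamini-Hochberg). Against windows 1000 bp to either side, 198 6-mers (9.52%) passed, 127 more and 71 less common at members. The side windows were taken as independent of their members, so this test did not use the pairing. ATCGAT led (69.7% against 11.5%), with AATCGA and TATCGA, which overlap it. The next group was rich in G and A, with GAGAGA at 44.6% against 9.74%, AGAGAC at 36.4% against 6.67% (exact test, adjusted p = 4.38e-16) and CGTCTC, which overlaps AGAGAC on the other strand, at 31.3% against 4.87%. ATCAAT was at 45.6% against 20.5% (exact test, adjusted p = 8.67e-08). This word was rarer at members than at other autosomal summits (61.4%, exact test, adjusted p = 0.00145) and intronic summits (67.2%, adjusted p = 4.3e-06). Against promoter summits (52.5%) it did not pass (exact test, adjusted p = 0.694). It was more common than at weaker distal intergenic summits (32.2%, exact test, adjusted p = 0.00606).

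Against the other autosomal summits, 140 6-mers (6.73%) passed, 93 more and 47 less common at members. Of the 93, 67 were among the 127 more common than in the side windows. AGAGAC was at 36.4% of members and 13.3% of the others (exact test, adjusted p = 4.39e-11), AAGAGA at 43.6% and 17.6%, and CGCAGA at 26.7% and 9.56%. Words rich in A and T were rarer, with AAAATC at 49.2% and 82.0% and AAAAAT at 52.8% and 83.0%. Median G+C within 100 bp was 40.8% at members, 38.3% at promoter, 35.3% at exon and UTR and 30.3% at intronic summits. It was 35.8% at weaker distal intergenic summits, and its part in the 6-mer calls was not tested. Far fewer 6-mers passed with promoter windows of 2000 bp upstream, where 6 did.

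The comparisons with single classes were added after these results were seen. Against promoter summits 23 6-mers (1.11%) passed, 16 more and 7 less common at members, and all of the 16 were among the 93. The promoter summits are part of the other autosomal summits and the member windows are the same. That overlap thus follows largely from the design. AGAGAC passed there at 36.4% against 20% (exact test, adjusted p = 0.00308), AAGAGA at 43.6% against 24.6%, while CGTCTC at 31.3% against 19.3% did not (adjusted p = 0.078). Against intronic summits 289 (13.9%) passed, with AGAGAC at 9.03% of them (exact test, adjusted p = 7.83e-15). Against weaker distal intergenic summits, where the directions were counted apart, 114 6-mers (5.48%) passed as more common and 95 (4.57%) as less common at members. AGAGAC was at 14.3% of the weaker summits (exact test, adjusted p = 8.38e-11). On X, 12 of 59 distal intergenic summits (20.3%) held AGAGAC and 6.81% of autosomal exon and UTR summits did, both without a test.

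**Figure D4:**
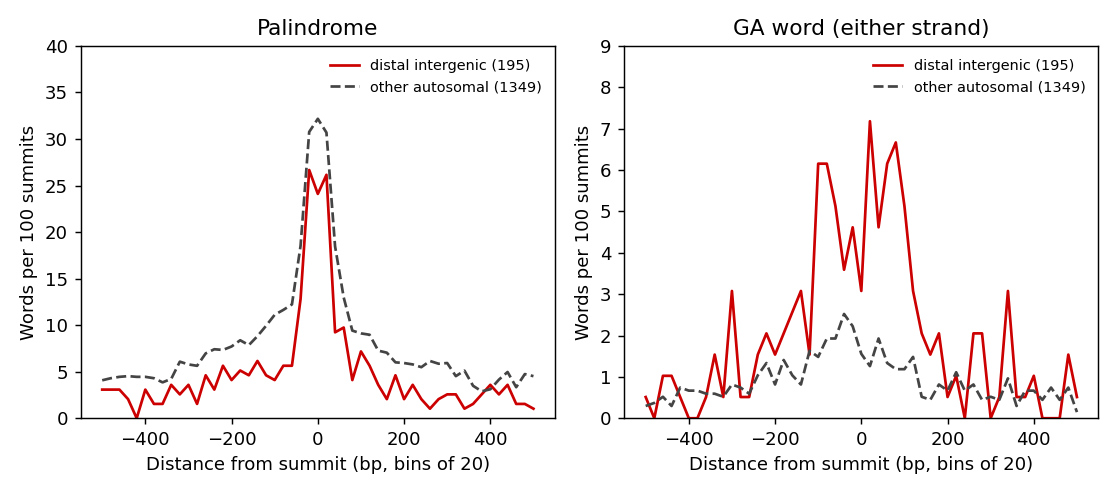
Copies of each word per 100 summits in bins of 20 bp by distance from the summit, for the 195 members (solid) and the 1349 other autosomal summits (dashed), with the vertical axes on different scales. ATCGAT peaks within 20 bp of the summit in both, and AGAGAC is spread over about 100 bp on both sides at members, with 3.08 per 100 in the central bin and 7.18 in the next bin to the right.

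The words stood in different members more often than together. AGAGAC was at 34 of the 136 members with ATCGAT (25%) and at 37 of the 59 without it (62.7%). The windows 1000 bp to either side of the same members held it at 6.99% and 5.93%. Members without ATCGAT also held GAGAGA (69.5%; side windows, 11.9%), CGTCTC (50.8%; 5.93%), CGCAGA (40.7%; 4.24%) and ATCAAT (52.5%; 16.1%). AAAAAT was at 22% of them, against 80.5% of their side windows and 66.2% of members with ATCGAT. These are descriptions of subsets chosen after the values were seen.

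The kinds differed in base composition and place. Median G+C within 100 bp was 32.6% at members with ATCGAT alone, 46.3% with both words, 47.8% with AGAGAC alone and 46.5% with neither, where the space had a mean of 34.4%. Median soft-masked shares were 55.7%, 19.9%, 18.4% and 29.9% in the same order, and 52 of 102, 4 of 34, 0 of 37 and 4 of 22 were masked over at least 50% of the window. Median signals were 97.7, 102, 82.9 and 71.9, with 76.3, 72.5, 58.5 and 55.01 in replicate 1 and 26.6, 26.4, 24.7 and 23.7 in replicate 2. Between convergent genes lay 30 members with ATCGAT alone (29.4%), 3 with both, 2 with AGAGAC alone (5.41%) and 3 with neither. In the outer 2 of 3 parts of the chromosomes lay 82.4%, 61.8%, 59.5% and 77.3%. The quartiles of signal overlapped between kinds (67.3 to 154 with ATCGAT alone, 69.7 to 106 with AGAGAC alone).

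**Figure D5:**
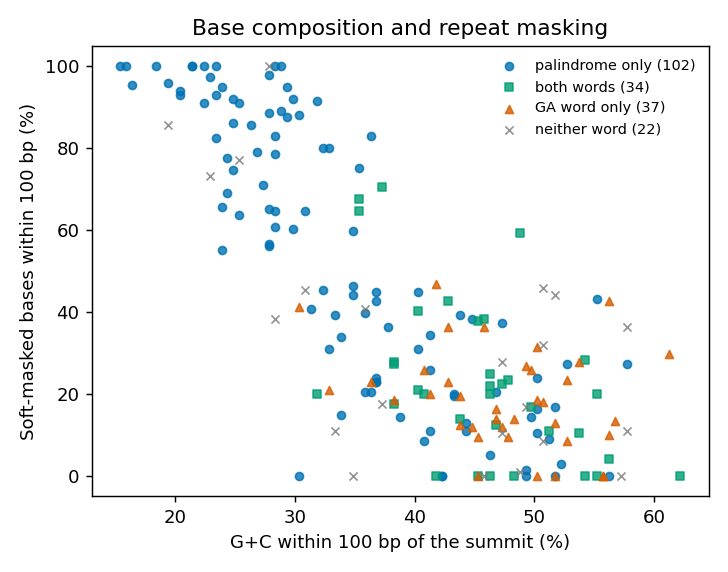
G+C content (horizontal, percent) and soft-masked share (vertical, percent) within 100 bp of each of the 195 members, with symbols by kind. Points masked over at least 50% are 60 in all and mostly hold the palindrome alone, and no member with the GA word alone is among them.

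Of the 22 members with neither word, 13 held ATCAAT. The highest were near unc-13, ZC416.2 (signal 220) and srbc-6 (208), the last a gene of a chemoreceptor family, and these were the only 3 above 200. The printed srbc-6 sequence shows runs of gattttattgatt, in which ATCAAT is read on the other strand.

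The known site of NK-2 class proteins, TTAAGTG or TCAAGTG on either strand, was rare. It was within 100 bp of 4 members (2.05%, interval 0.801 to 5.15), in 9 right windows (4.62%) and in 4.56% of windows of the space, and members and right windows did not differ past the threshold (exact McNemar test, adjusted p = 0.445). With promoter windows of 500 bp upstream, which gave 259 members, it was rarer at members (1.54% against 6.18%, exact test, adjusted p = 0.0222). The 4 members, named after the values were seen, were nearest to srbc-6, snx-6, BE10.1 and K01D12.15.

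Gene families were examined by the gene nearest to each member, beside the same shares of weaker summits. Nuclear hormone receptor genes (nhr-) were nearest to 7 members (3.59%; weaker summits, 2.19%), the highest near nhr-95 (116 and 94.3). Chemoreceptor genes (sr-) were nearest to 1 (0.513%; weaker, 3.11%). Neuropeptide and insulin-like genes were nearest to 2 (1.03%; weaker, 0.854%), nlp-40 (121) and ins-13 (72.3), and a C-type lectin gene, clec-163 (164), to 1 (0.513%; weaker, 0.512%). The count was 0 for ribosomal protein, collagen, ceh-, histone, F-box (fbx-), ugt-, cyp- and hsp- genes. These families made up between 0.0683% and 1.02% each of the genes nearest to weaker summits, and with shares this low the counts of 0 say nothing particular about the members. None of these counts was tested.

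No member lay within 10 kb of the autosomal genes known from the M4 neuron and CEH-28. The nearest was 121562 bp from dbl-1, the BMP ligand gene, 113266 bp from zag-1, a zinc finger homeodomain gene, 259768 bp from ceh-32 and 672044 bp from ceh-34, both homeodomain genes. Weaker distal intergenic summits, whose median signal was 17.6, lay nearer to all 4 genes. Their signals were 13.0 at 4152 bp from dbl-1, 16.2 at 3017 bp from zag-1, 18.8 at 4180 bp from ceh-32 and 28.2 at 10456 bp from ceh-34. The weaker summits number 2929 against 195 members, so some lie nearer to most places. Distances to other genes were not measured, so these values say nothing particular about the 4 genes.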

How the data were processed

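The deposited peak lists on ce11 were used: 23410 summits of replicate 1, 26414 of replicate 2, 20803 of both pooled, and 1739 that passed the authors' reproducibility threshold (irreproducible discovery rate). The authors called peaks for each replicate and for the pooled replicates, per the deposited lineage notes. Which aligner and caller they ran is not given in the sources used here. The signal of each peak is the authors' own value with no stated scale. The lists hold no counts, so the depth is unknown. The ce10 lists were not used here.

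Summits were placed with 19973 protein-coding genes of Ensembl release 115 (order: promoter window, exon, intron, distal). Sequence and soft-masking came from RefSeq's WBcel235 genome. Shares were compared with Fisher's exact and exact McNemar tests, and all 6-mers with Fisher's exact tests (two-sided, Benjamini-Hochberg, adjusted p under 0.05). The 6-mer test was checked on simulated data. The members, the lists and the tests were chosen with earlier results of these data known. Named were the genes nearest to the 15 highest members, the highest of each autosome, the 5 with most ATCGAT sites, those at the limits of signal, window and distance, the highest of each gene family, and 4 M4 neuron genes; further names are said to be chosen after their values were seen. Alternatives were other windows, promoter limits, side windows, thresholds, 1 summit per region and each replicate alone. The tools were scipy 1.17.1 with statsmodels 0.14.6, pandas 2.3.3 and numpy 2.4.6 under Python 3.11.15, and matplotlib 3.10.9.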

Additional observations from a re-analysis of the deposited data

How the results depend on the processing

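Of 174 values under alternatives, 150 kept their direction and their side of the threshold (counts of 6-mers within 1.5 times), among them all from each replicate alone. With 1 group there are no groups to pair. The exceptions follow, and for them the cause was not tested, beyond the smaller or larger number of summits.

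With windows of 50 bp, 4 or more sites were at 1.54% of members, and 67 6-mers passed against side windows and 60 against other summits. With promoter windows of 2000 bp upstream (128 members), ATCGAT was at 73.4% of members and 72.1% of promoter summits, the matched ratio was 80.0 against 24.6, the share above the median signal 54.7%, 4 or more sites 8.59% and soft-masked summits 54.7%, and 50 and 6 6-mers passed. With 500 bp upstream (259 members), the outer share was 69.5%, the divergent share 32.8%, the non-coding share 15.4% (now past the threshold, exact test, adjusted p = 0.0382), the NK-2 site share 1.54%, and 253 6-mers passed against other summits. At or above the median signal (98 members), ATCGAT was at 77.6% against 88.5% in exons and UTRs, and 37 and 71 6-mers passed. The left window gave a matched ratio of 118 against 27.6, and a side window at 500 bp 36.3 against 30.5. The direction of the ratio turned in both, as with promoter windows of 2000 bp upstream. With the right side alone, 117 6-mers passed. Against the next weaker summits, the outer share of 73.8% did not pass, the divergent share of 28.2% stood above theirs (27.1%) and the non-coding share of 13.3% below theirs (17.6%).

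The lists hold no read counts, so no limit of detection can be given for a member absent from a replicate.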
